A study of Mus musculus with 12 samples.

Results

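Oligodendrocyte lineage and myelin genes were described across the striatum of R6/2 and wild-type (WT) mice given a short hairpin RNA (shRNA) against TRAX or a control. The 33 genes were chosen by name, from what they are known to do and with earlier results of these data known, and all were found among the 51912 genes of the deposited tables. They run from surface genes of precursor cells to the proteins and lipid enzymes of myelin. The measurements came from 12 total RNA libraries of the striatum at 10.5 weeks of age, 3 in each of 4 groups. R6/2-T mice carried the HDexon1 transgene, the first exon of human huntingtin, which makes them a model of Huntington's disease, and received an adeno-associated virus (AAV) with the TRAX shRNA. R6/2-C mice carried the same transgene and received the AAV with a control shRNA. WT-T and WT-C mice lacked the transgene and received the TRAX shRNA or the control shRNA. Every group, controls included, was on the B6CBAFI/J strain label and was injected with AAV into both striata at 5 weeks of age, so no group was free of virus or injection. The labels name neither the promoter of the shRNA nor the cells the virus reached, and they do not say that each library came from its own animal.

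Oligodendrocytes are the cells that wrap axons of the brain in myelin, a stack of membrane rich in a few proteins and in galactolipids. They arise from precursor cells that persist in the adult brain. The transcription factors Olig2 and Sox10 set the lineage, and Myrf then switches on the genes of myelin as the cell leaves the precursor stage. The striatum is crossed by myelinated fibre bundles, so its RNA holds oligodendrocyte transcripts beside those of its neurons.

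Promoter sequences are shown first, as a description of the genes only. RefSeq promoters on GRCm38.p6 were matched for 24 of the 33 genes, with 33 promoters among them. None was matched for Olig1, Sox10, Myrf, Gpr17, Bcas1, Mbp, Fa2h, Trf and Car2. The 250 bases before the start were searched on both strands, with overlapping matches allowed, for a core bound by Sox factors (ACAAAG), a core bound by Myrf (CTGGCAC or CTGGTAC) and an E-box (CAGCTG). The Sox core lay in 10 of the 33 member promoters, from 8 genes (30.3%), and in 16.5% of all 32851 promoters. The Myrf core lay in 4 member promoters, from 3 genes (12.1%), and in 5.93% of all. The E-box lay in 1 member promoter, from 1 gene (3.03%), and in 13.0% of all. Genes with more than 1 promoter, such as Mag with 3, were counted once per promoter. The differences between these shares were not tested. Cldn11 (chr3:31149670-31149919, plus strand) and Mobp (chr9:120149492-120149741, plus strand) are printed because they had the smallest p-values between genotypes among the matched genes. Mag (chr7:30914864-30915113, minus strand) and Cnp (chr11:100574689-100574938, plus strand) are printed because they held both the Sox core and the Myrf core. Capitals mark the matches, with the Sox core on the other strand reading CTTTGT.
Cldn11: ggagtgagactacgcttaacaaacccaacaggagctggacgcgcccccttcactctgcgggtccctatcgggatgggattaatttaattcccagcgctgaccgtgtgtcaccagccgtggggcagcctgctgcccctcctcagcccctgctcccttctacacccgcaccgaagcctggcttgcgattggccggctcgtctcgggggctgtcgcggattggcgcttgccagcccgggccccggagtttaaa
Mobp: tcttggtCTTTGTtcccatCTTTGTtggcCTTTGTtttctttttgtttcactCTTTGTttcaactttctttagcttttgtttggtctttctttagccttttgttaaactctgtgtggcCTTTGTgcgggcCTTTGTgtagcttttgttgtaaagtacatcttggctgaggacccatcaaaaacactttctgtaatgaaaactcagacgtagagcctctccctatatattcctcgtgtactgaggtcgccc
Mag: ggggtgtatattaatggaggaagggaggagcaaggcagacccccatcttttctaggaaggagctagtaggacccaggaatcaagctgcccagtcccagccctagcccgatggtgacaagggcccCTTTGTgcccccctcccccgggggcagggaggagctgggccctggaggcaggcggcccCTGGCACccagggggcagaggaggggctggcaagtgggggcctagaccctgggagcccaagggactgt
Cnp: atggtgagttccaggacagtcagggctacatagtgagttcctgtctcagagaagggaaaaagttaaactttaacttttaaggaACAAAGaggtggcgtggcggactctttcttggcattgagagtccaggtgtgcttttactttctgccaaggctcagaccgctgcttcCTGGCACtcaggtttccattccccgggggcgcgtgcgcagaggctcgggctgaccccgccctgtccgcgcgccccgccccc
Mobp held 6 Sox cores, a number that only its own promoter reached among all 32851 (0.00304%), and Cldn11 held none of the 3 motifs. A match describes letters in this window and was not tied to any measurement here.

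All 33 genes passed the filter on low counts. Levels within 1 gene are given as CPM, estimated counts scaled to a common library size, and levels between genes as the deposited FPKM, which also divides by gene length. On the FPKM scale in WT-C the genes spanned a wide range of levels. Mbp averaged 760.0 FPKM and Mobp 630.0 FPKM, the highest levels of the 33. Cspg4 averaged 2.90 FPKM and Vcan 4.78 FPKM, the lowest. Myelin protein genes thus made up most of the signal, and the precursor genes were read at much lower levels.

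**Figure D1:**
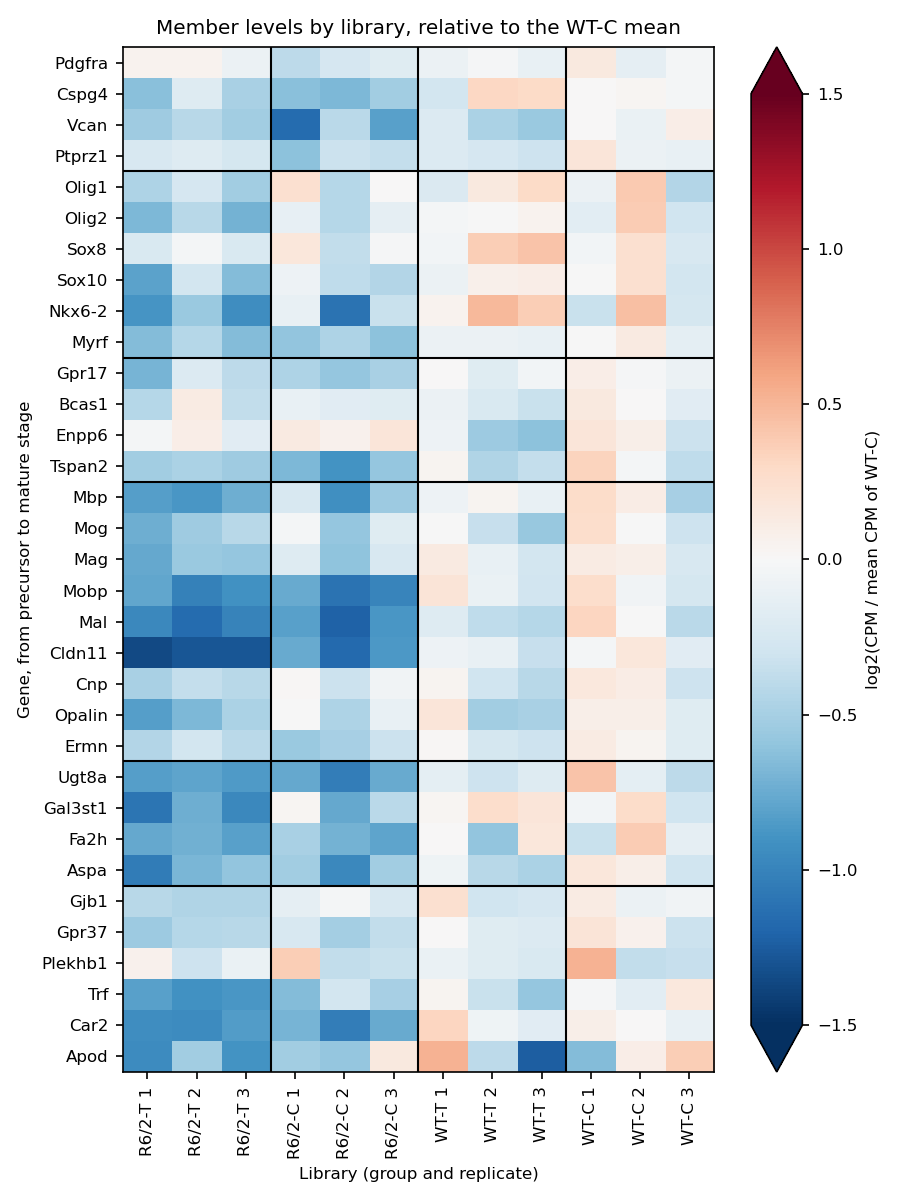
Heat map of log2(CPM divided by the mean CPM of WT-C) for the 33 genes, in rows from precursor to mature stage, in the 12 libraries. Blue cells are below the WT-C mean; the rows of Cldn11, Mobp, Mal and Car2 are blue in every R6/2 library, and the rows of Enpp6 and Plekhb1 are not.

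The first comparison asked how R6/2-C differed from WT-C, both with the control virus. Each stage from precursor to mature cell held at least 1 gene that was lower in R6/2-C. Most of the transcription factors, of the structural myelin protein genes and of the other mature genes were not called. Of the 33 genes, 13 fell (edgeR adjusted p under 0.05 over all 23453 genes tested), where 4.22% of all genes were called lower, and 0 rose, where 4.87% of all were called higher. The median log2 difference of the 33 was −0.43, against −0.02 for all genes, and 32 of 33 differences were negative. In 16 genes every R6/2-C library lay below every WT-C library, which held for 14.0% of all genes, and in none above, which held for 15.6%. Without 1 library the count fell to 7 (R6/2-C 1), 8 (R6/2-C 2), 6 (R6/2-C 3), 7 (WT-C 1) or 7 (WT-C 2), and it was 4 when only these 2 groups were fitted. Myrf, Mobp, Mal, Cldn11, Ugt8a and Car2 were called whichever library was left out.

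The second comparison set R6/2-T against WT-T, both with the TRAX shRNA, and shared no library with the first, although a single model gave the spread for both. Here 15 genes fell, where 11.1% of all genes were called lower, and 0 rose, where 11.5% of all were called higher. The median log2 difference was −0.47, against −0.05 for all genes, and 28 of 33 differences were negative. In 20 genes all R6/2-T libraries lay below all WT-T libraries, which held for 20.9% of all genes, and in none above, which held for 21.3%. The count was 6 without R6/2-T 1, 7 without R6/2-T 3 and 9 without WT-T 2. Cspg4, Myrf, Mobp, Mal, Cldn11, Ugt8a and Car2 fell in both comparisons, 53.8% of the first list and 46.7% of the second. Genes called in 1 comparison only are not shown to differ between them, since the interaction, which tests that difference, was called for 0 of the 33 genes.

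Over both viruses (the mean of R6/2-T and R6/2-C against the mean of WT-T and WT-C), 21 of the 33 genes fell, where 15.4% of all genes were called lower, and 0 rose, where 15.3% of all were called higher. The median log2 difference was −0.43, against −0.04 for all genes. In 9 genes all 6 R6/2 libraries lay below all 6 WT libraries, which held for 4.95% of all genes, and in none above, which held for 7.22%. This pooled comparison uses the libraries of the other comparisons again and is not further evidence. In bulk tissue, fewer oligodendrocytes and less RNA per oligodendrocyte cannot be told apart.

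**Figure D2:**
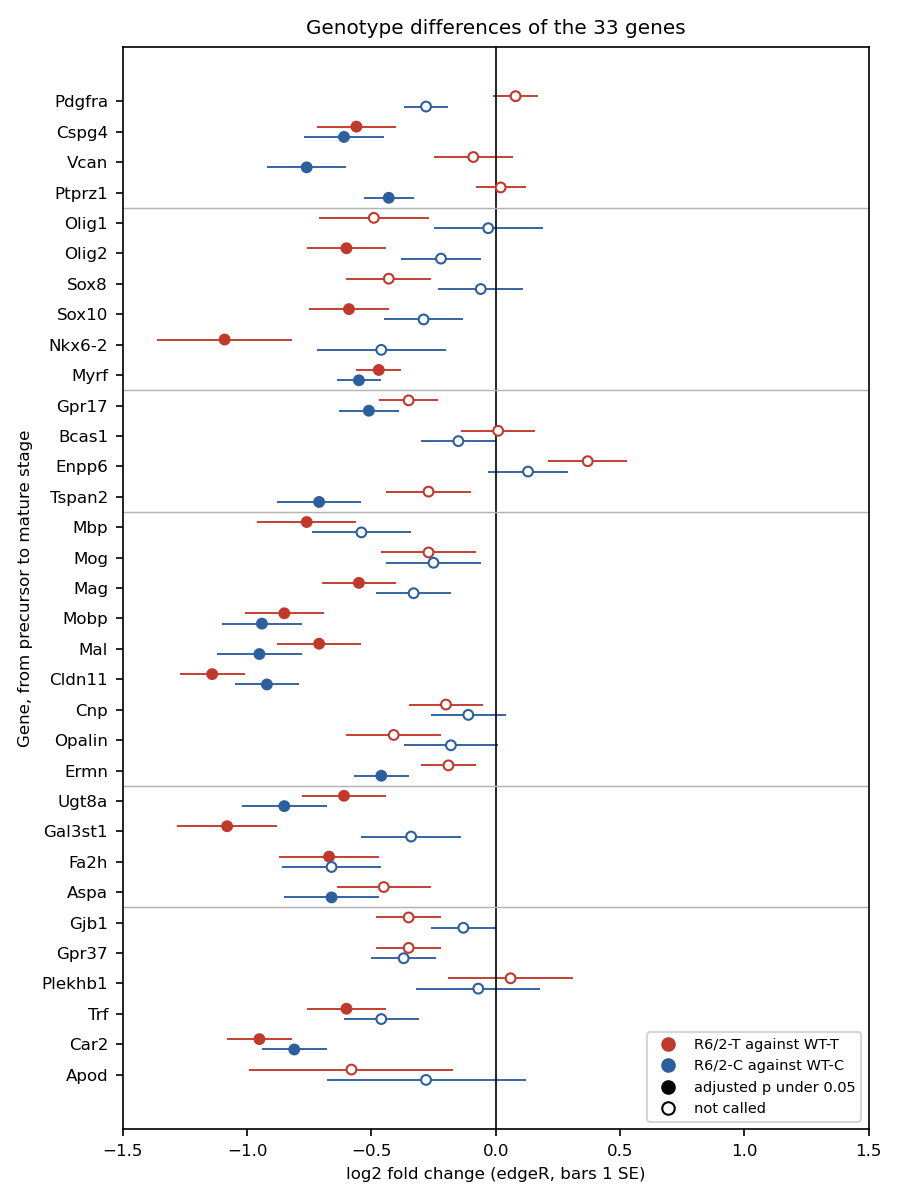
log2 fold change of each of the 33 genes for R6/2-T against WT-T (red) and R6/2-C against WT-C (blue), with bars of 1 SE from edgeR; filled points have an adjusted p under 0.05. The filled points all lie left of 0, and Enpp6 lies right of 0 in both comparisons.

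Among the surface and matrix genes of precursor cells, 3 of 4 fell in R6/2-C against WT-C and 1 of 4 in R6/2-T against WT-T. Cspg4, which encodes the NG2 proteoglycan of precursor cells and is also made by pericytes, had 14.7, 14.2 and 15.8 CPM in R6/2-C, against 22.7, 23.2 and 22.3 CPM in WT-C. It had 14.7, 19.9 and 16.2 CPM in R6/2-T, against 18.8, 28.2 and 27.7 CPM in WT-T. The groups with the control virus did not overlap, and with the shRNA WT-T 1 lay below R6/2-T 2. The log2 difference was −0.61 (SE 0.16, edgeR adjusted p = 0.0358) in R6/2-C against WT-C and −0.56 (SE 0.16, adjusted p = 0.0256) in R6/2-T against WT-T, and the first call was lost without any 1 of its 6 libraries, the second without R6/2-T 1, R6/2-T 3, WT-T 2 or WT-T 3, and both with GC content and length corrected for (log2 −0.32 and −0.36).

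Vcan, the matrix proteoglycan versican, had 19.8, 33.2 and 25 CPM in R6/2-C, against 44.2, 41.1 and 47.1 CPM in WT-C. All R6/2-C libraries were lower, and the difference was called (log2 −0.76, SE 0.16, edgeR adjusted p = 0.0184). With the shRNA it had 30.4, 33 and 30.7 CPM in R6/2-T and 38.3, 31.8 and 30.0 CPM in WT-T, which overlapped. Ptprz1, a receptor tyrosine phosphatase of precursors and astrocytes, also fell in R6/2-C against WT-C (log2 −0.43, SE 0.10, adjusted p = 0.0292). It ranged from 194 to 203 CPM in R6/2-T and from 187 to 201 CPM in WT-T, again overlapping. Pdgfra, the receptor for the growth factor that keeps precursors dividing, was not called by edgeR in any comparison. It had 56.0, 61.6 and 64.7 CPM in R6/2-C, against 81.4, 67.1 and 72.2 CPM in WT-C, with no overlap (edgeR adjusted p = 0.0858), and DESeq2 called it lower (adjusted p = 0.0348). The call of Vcan was lost without R6/2-C 3 or WT-C 3, and that of Ptprz1 without R6/2-C 1, R6/2-C 3, WT-C 1 or WT-C 2.

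Of the 6 lineage transcription factors, Myrf alone fell in R6/2-C against WT-C, while 4 fell in R6/2-T against WT-T. Myrf had 85.9, 93.3 and 84.4 CPM in R6/2-C, against 128, 142 and 117 CPM in WT-C. It had 82.3, 96.0 and 82.5 CPM in R6/2-T, against 121, 121 and 119 CPM in WT-T. No R6/2 library reached any WT library. The log2 difference was −0.55 (SE 0.09, edgeR adjusted p = 0.00757) in R6/2-C against WT-C and −0.47 (SE 0.09, adjusted p = 0.00588) in R6/2-T against WT-T, and with GC content and length corrected for they were −0.36 and −0.29, the second no longer called.

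Nkx6-2, a homeodomain factor of maturing oligodendrocytes, had 20.5, 25.7 and 19.8 CPM in R6/2-T, against 39.0, 53.0 and 48.6 CPM in WT-T (log2 −1.09, SE 0.27, edgeR adjusted p = 0.0147). The groups did not overlap, but in R6/2-C it had 34.9, 17.5 and 29.9 CPM and in WT-C 30.0, 51.5 and 31.4 CPM, which did. Sox10, needed throughout the lineage, had 38.6, 55.7 and 43.0 CPM in R6/2-T, against 63.4, 71.2 and 72.4 CPM in WT-T (log2 −0.59, SE 0.16, adjusted p = 0.0239). Olig2, which specifies the lineage, had 23.6, 28.0 and 23.0 CPM in R6/2-T, against 36.7, 37.3 and 38.8 CPM in WT-T (log2 −0.60, SE 0.16, adjusted p = 0.0237). With GC content and length corrected for, the log2 differences were −0.53 for Nkx6-2, −0.13 for Sox10 and −0.21 for Olig2, and with the replicate block beside that correction Nkx6-2 was not called. The calls of Nkx6-2, Sox10 and Olig2 were lost without R6/2-T 1, R6/2-T 3 or WT-T 2, and those of Sox10 and Olig2 also without WT-T 3 and once GC content and transcript length were corrected for. Olig1, a relative of Olig2, and Sox8, a relative of Sox10, were not called by edgeR in any comparison. Their pooled log2 differences between genotypes were −0.26 (SE 0.16) for Olig1, which turned to 0.04 with GC content and length corrected for, and −0.24 (SE 0.12) for Sox8.

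The genes of committed and newly formed oligodendrocytes did not move together. Gpr17, an orphan receptor of committed precursors, had 64.6, 59.3 and 63.7 CPM in R6/2-C, against 94.9, 88.1 and 83.7 CPM in WT-C (log2 −0.51, SE 0.12, edgeR adjusted p = 0.0232). It had 55.0, 77.0 and 67.8 CPM in R6/2-T, against 89.4, 78.6 and 86.3 CPM in WT-T, separated but not called by edgeR (log2 −0.35, SE 0.12, adjusted p = 0.0502; DESeq2 adjusted p = 0.0311). Tspan2, a tetraspanin of early myelinating cells, had 130, 111 and 138 CPM in R6/2-C, against 260, 203 and 159 CPM in WT-C (log2 −0.71, SE 0.17, adjusted p = 0.0309). It had 144, 149 and 143 CPM in R6/2-T, against 213, 152 and 161 CPM in WT-T, separated but not called (log2 −0.27, SE 0.17, adjusted p = 0.287). The calls of Gpr17 and Tspan2 in R6/2-C against WT-C were lost without any 1 of their libraries except WT-C 3, and that of Gpr17 with GC content and length corrected for.

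Bcas1, a marker of cells that have just begun to myelinate, and Enpp6, a choline phosphodiesterase of newly formed oligodendrocytes, were not called by edgeR in any comparison. Bcas1 averaged 291 ± 8.56 CPM in R6/2-C and 324 ± 36.8 CPM in WT-C (SD, n = 3 each), and its pooled log2 difference was −0.07 (SE 0.10, edgeR adjusted p = 0.627). Enpp6 had 24.9, 23.8 and 25.8 CPM in R6/2-C, against 25.8, 24.1 and 18.2 CPM in WT-C. It had 22.3, 24.4 and 20.2 CPM in R6/2-T, against 21.6, 15.5 and 14.8 CPM in WT-T. Its groups overlapped, and it was the 1 gene of the 33 with a positive pooled log2 difference (0.25, SE 0.12, adjusted p = 0.126). Without WT-T 1, the highest WT-T library, Enpp6 was called higher both in the pooled comparison and in R6/2-T against WT-T.

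Of the 9 structural myelin protein genes, 4 fell in R6/2-C against WT-C, 5 fell in R6/2-T against WT-T and 6 fell in the pooled comparison. Their summed level was 1182 to 1209 FPKM in R6/2-T and 1178 to 1588 FPKM in R6/2-C, against 1603 to 2241 FPKM in WT-T and 1707 to 2397 FPKM in WT-C. No R6/2 library reached the lowest WT library in that sum, which is carried mostly by Mbp and Mobp.

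Cldn11 encodes the claudin that forms the tight junctions of the myelin sheath (ENSMUSG00000037625, GRCm38 chromosome 3, 31149920 to 31164324, plus strand). It had 149, 112 and 138 CPM in R6/2-C, against 246, 282 and 224 CPM in WT-C. It had 98.4, 103 and 103 CPM in R6/2-T, against 239, 232 and 197 CPM in WT-T. All R6/2 libraries lay below all WT libraries, and the gene stood at 53.0% of the WT-C level in R6/2-C and at 45.4% of the WT-T level in R6/2-T. The log2 difference was −0.92 (SE 0.13, edgeR adjusted p = 0.0026) in R6/2-C against WT-C and −1.14 (SE 0.13, adjusted p = 0.000318) in R6/2-T against WT-T, and it was called under every alternative tried.

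Mobp, a small basic protein of compact myelin, had 1066, 833 and 904 CPM in R6/2-C, against 2154, 1733 and 1497 CPM in WT-C. It had 1044, 892 and 957 CPM in R6/2-T, against 2048, 1672 and 1477 CPM in WT-T. The R6/2 libraries again lay below all WT libraries, at log2 −0.94 (SE 0.16, edgeR adjusted p = 0.00768) in R6/2-C against WT-C and −0.85 (SE 0.16, adjusted p = 0.00447) in R6/2-T against WT-T. Mal, a proteolipid that carries myelin proteins to the membrane, had 207, 157 and 199 CPM in R6/2-C, against 455, 362 and 274 CPM in WT-C (log2 −0.95, SE 0.17, adjusted p = 0.00866). With the shRNA it had 186, 164 and 182 CPM in R6/2-T, against 318, 280 and 271 CPM in WT-T (log2 −0.71, SE 0.17, adjusted p = 0.0128). All R6/2 libraries were below all WT libraries here too, and without R6/2-T 2 the call of Mal in R6/2-T against WT-T was lost.

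Mbp, the basic protein that holds the membrane layers together, had 902, 876 and 965 CPM in R6/2-T, against 1518, 1642 and 1482 CPM in WT-T, with no overlap (log2 −0.76, SE 0.20, edgeR adjusted p = 0.0186). In the control virus groups it had 1351, 847 and 1095 CPM in R6/2-C and 1934, 1730 and 1133 CPM in WT-C, and R6/2-C 1 lay above WT-C 3 (adjusted p = 0.11). Mag, an adhesion protein facing the axon, fell in R6/2-T against WT-T, with 165, 191 and 187 CPM in R6/2-T and 308, 259 and 231 CPM in WT-T (log2 −0.55, SE 0.15, adjusted p = 0.0204). Ermn, a cytoskeletal protein of the sheath, fell in R6/2-C against WT-C, with 124, 130 and 146 CPM in R6/2-C and 199, 188 and 162 CPM in WT-C (log2 −0.46, SE 0.11, adjusted p = 0.0326). The call of Mbp was lost without R6/2-T 1, R6/2-T 2, R6/2-T 3 or WT-T 2, and that of Mag without R6/2-T 1, R6/2-T 2, R6/2-T 3 or WT-T 1. The call of Ermn was lost without any 1 of its libraries except WT-C 3, and that of Mag also with GC content and length corrected for (log2 −0.20).

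Mog, on the outer face of myelin, Cnp, a phosphodiesterase of its uncompacted layers, and Opalin, a glycoprotein of the sheath, were not called by edgeR in any comparison. Cnp had 532, 419 and 506 CPM in R6/2-C and 585, 567 and 424 CPM in WT-C. It had 376, 411 and 395 CPM in R6/2-T and 538, 427 and 395 CPM in WT-T. Both pairs of groups overlapped. The pooled log2 difference of Cnp was −0.16 (SE 0.11, edgeR adjusted p = 0.288; 0.02 with GC content and length corrected for and the replicate block), that of Mog −0.26 (SE 0.13, adjusted p = 0.163) and that of Opalin −0.30 (SE 0.14, adjusted p = 0.121). The changes of myelin protein genes were therefore of unequal measured size, with a pooled log2 difference of −1.03 (SE 0.09) for Cldn11 at the other end.

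**Figure D3:**
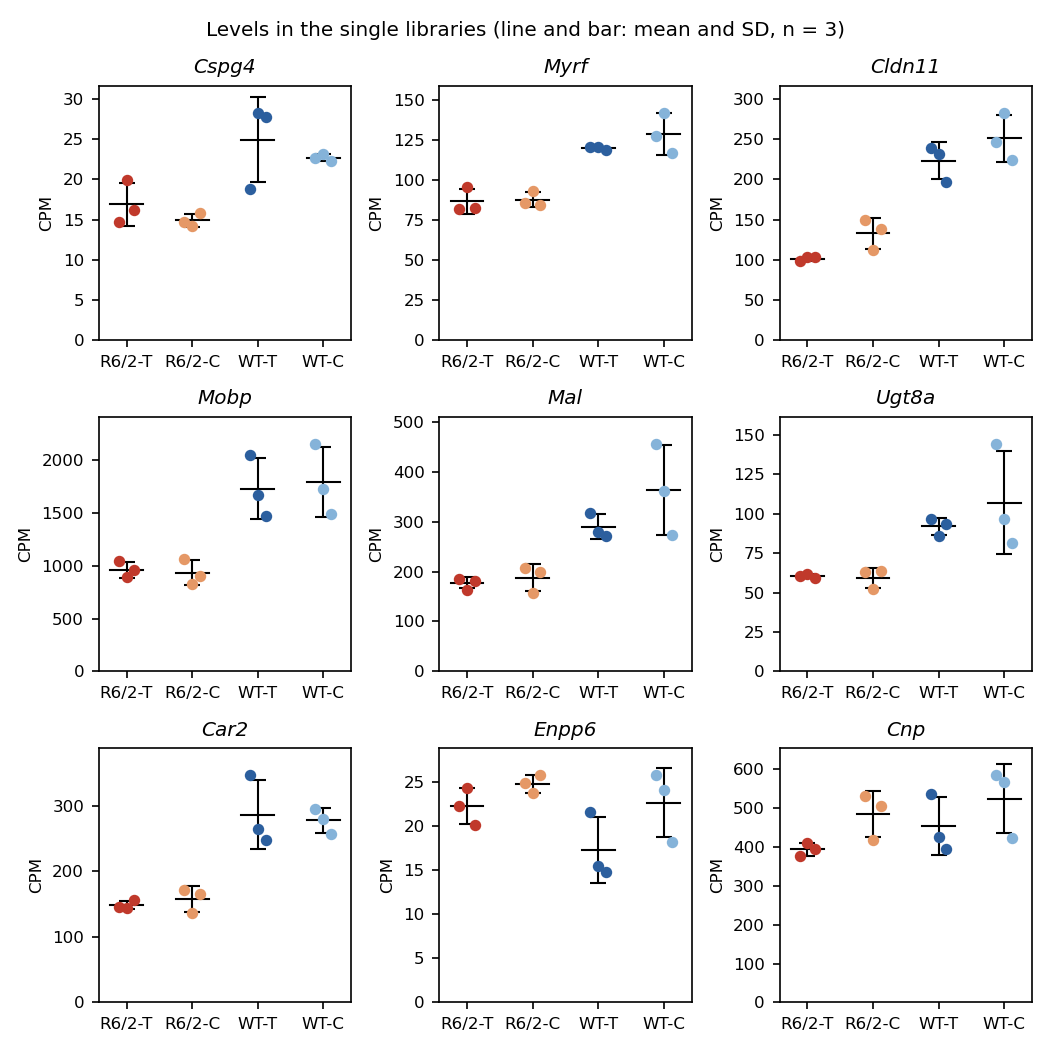
CPM of 9 genes in each library, by group, with the mean and SD of 3 libraries as a line and bar. Cspg4, Myrf, Cldn11, Mobp, Mal, Ugt8a and Car2 fell in both genotype comparisons; for Enpp6 and Cnp, which were not called, R6/2-C overlaps WT-C and R6/2-T overlaps WT-T.

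All 4 myelin lipid genes fell in the pooled comparison, with 2 called in R6/2-C against WT-C and 3 in R6/2-T against WT-T. Ugt8a makes galactosylceramide, the main glycolipid of myelin. It had 62.8, 52.0 and 63.5 CPM in R6/2-C, against 144, 96.5 and 81.5 CPM in WT-C (log2 −0.85, SE 0.17, edgeR adjusted p = 0.0146). It had 60.3, 61.6 and 59.5 CPM in R6/2-T, against 96.4, 86.1 and 93.4 CPM in WT-T (log2 −0.61, SE 0.17, adjusted p = 0.0268), and every R6/2 library lay below every WT library, although the second call was lost without any 1 of its 6 libraries. With GC content and length corrected for, the second difference was −0.94.

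Gal3st1, which adds sulfate to that lipid, had 8.07, 10.4 and 8.82 CPM in R6/2-T, against 17.6, 20.7 and 19.6 CPM in WT-T (log2 −1.08, SE 0.20, edgeR adjusted p = 0.00382). In R6/2-C it had 17.6, 10.2 and 13.1 CPM and in WT-C 16.8, 20.9 and 14.1 CPM, which overlapped. With GC content and length corrected for, the difference in R6/2-T against WT-T was −0.66 on the log2 scale for Gal3st1 and remained called. Fa2h, which hydroxylates the fatty acids of myelin lipids, had nearly equal fitted differences in both comparisons, at log2 −0.66 (SE 0.20, edgeR adjusted p = 0.0693, DESeq2 adjusted p = 0.0233) in R6/2-C against WT-C and −0.67 (SE 0.20, adjusted p = 0.0369) in R6/2-T against WT-T. Aspa, which frees acetate from N-acetylaspartate for lipid synthesis, had 11.4, 8.40 and 11.4 CPM in R6/2-C, against 18.5, 17.4 and 13.3 CPM in WT-C (log2 −0.66, SE 0.19, adjusted p = 0.0484). The call of Aspa was lost without any 1 of its 6 libraries, and that of Fa2h without any 1 of its libraries except WT-T 2 and with GC content and length corrected for (log2 −0.38).

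Of the 6 other genes of mature oligodendrocytes, Car2 fell in both comparisons and Trf in R6/2-T against WT-T. Car2, a carbonic anhydrase, had 172, 136 and 165 CPM in R6/2-C, against 295, 280 and 258 CPM in WT-C (log2 −0.81, SE 0.13, edgeR adjusted p = 0.00596). It had 146, 144 and 156 CPM in R6/2-T, against 347, 265 and 248 CPM in WT-T (log2 −0.95, SE 0.13, adjusted p = 0.000975). No R6/2 library reached any WT library. Trf, the iron carrier transferrin, had 540, 509 and 520 CPM in R6/2-T, against 978, 757 and 639 CPM in WT-T (log2 −0.60, SE 0.16, adjusted p = 0.0186), a call lost without R6/2-T 1 or R6/2-T 2 and with GC content and length corrected for.

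Gpr37, a receptor of maturing oligodendrocytes, fell in the pooled comparison (log2 −0.36, SE 0.09, edgeR adjusted p = 0.0128) and in neither of the others. Gjb1, a gap junction connexin, was not called by edgeR in any comparison (pooled log2 −0.24, SE 0.09, adjusted p = 0.0743). Apod, a lipid-binding lipocalin, varied widely between libraries, with 521, 277 and 155 CPM in WT-T, and was not called (pooled log2 −0.43, SE 0.29). Plekhb1 had 407, 243 and 249 CPM in R6/2-C and 450, 243 and 247 CPM in WT-C. In each of these groups library 1 stood far above the other two, and the pooled log2 difference was 0.00 (SE 0.18).

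The libraries of a group differed from each other in a way that many of the 33 genes shared. R6/2-C 2 was the lowest of its group in 23 of the 33 genes, WT-C 3 in 25 and WT-T 3 in 20. WT-C 1 and R6/2-C 1 were each the highest in 20 genes, WT-T 1 in 23 and R6/2-T 2 in 21. The median coefficient of variation over the 33 genes was 7.94% in R6/2-T, 12.8% in R6/2-C, 14.8% in WT-T and 16.8% in WT-C. The R6/2-T libraries were thus the most alike in these genes. Depth was uneven between the groups. R6/2-C 1, WT-T 2, WT-T 3 and WT-C 3 held 56717294, 56485022, 53079499 and 57308871 fragments, as recovered from the deposited signal. No other library held more than 41707026, and the R6/2-T libraries held 37909843, 32206236 and 37651399. The part of depth in these spreads, or in the differences between groups, was not tested.

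The next comparisons asked whether the TRAX shRNA moved these genes within a genotype. Tsnax, the gene of TRAX, had 44.7, 40.0 and 47.0 CPM in R6/2-T, against 197, 168 and 189 CPM in R6/2-C. It had 32.9, 27.6 and 33.6 CPM in WT-T, against 151, 152 and 167 CPM in WT-C, so each library lay on the side of its label. None of the 33 genes was called in R6/2-T against R6/2-C by edgeR or DESeq2 (0 each), with 7 at an unadjusted p under 0.05, as were 19.2% of all genes. edgeR called 0.0171% of all genes lower and 0.0512% higher there. In WT-T against WT-C again 0 were called by either tool, with 3 at an unadjusted p under 0.05 (6.45% of all genes), where 0.00426% of all genes were called lower and 0.0% higher.

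In R6/2-T against R6/2-C the 33 differences ran from −0.59 to 0.29 on the log2 scale, with a median of −0.10, against −0.03 for all genes. All R6/2-T libraries lay below all R6/2-C libraries in 5 genes (Cldn11, Cnp, Opalin, Gjb1 and Trf) and above them in 3 (Pdgfra, Ptprz1 and Tspan2), which held for 12.9% and 14.1% of all genes. Cldn11 had the smallest adjusted p, with 98.4, 103 and 103 CPM in R6/2-T and 149, 112 and 138 CPM in R6/2-C (log2 −0.39, SE 0.13, edgeR adjusted p = 0.139). Without R6/2-C 2, which was low in many of these genes, 2 genes were called lower, Cldn11 (log2 −0.51, adjusted p = 0.0367) and Gal3st1. Pdgfra had 76.6, 76.3 and 69.4 CPM in R6/2-T and 56.0, 61.6 and 64.7 CPM in R6/2-C, separated but not called (log2 0.29, SE 0.09, adjusted p = 0.141). By stage, the 4 precursor genes had positive differences in R6/2-T against R6/2-C, from 0.18 to 0.29, and the 6 transcription factors negative ones, from −0.38 to −0.02, none of them called. The 15 other precursor genes described below did not share that direction. Of these, 7 had negative differences, with a median of 0.04 and a range from −1.07 to 0.66.

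In WT-T against WT-C the 33 differences ran from −0.40 to 0.32, with a median of −0.11, against 0.00 for all genes. Ptprz1 had the smallest adjusted p (log2 −0.26, SE 0.10, edgeR adjusted p = 0.726), with 201, 195 and 187 CPM in WT-T and 264, 218 and 214 CPM in WT-C. Ptprz1 and Vcan were the 2 genes whose WT-T libraries all lay below the WT-C libraries (5.88% of all genes), and for none of the 33 did they all lie above (5.28% of all). The interaction, the shRNA difference in R6/2 minus that in WT, was called for 0 of the 33 genes by edgeR and by DESeq2, where edgeR called 0.0% of all genes lower and 0.00426% higher. Of the 33, 4 had an unadjusted interaction p under 0.05 (Gal3st1, Pdgfra, Vcan and Ptprz1), a share close to the 11.7% of all genes, and the smallest adjusted p was 0.353. No difference of these genes with the shRNA was thus called with all libraries in the fit.

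**Figure D4:**
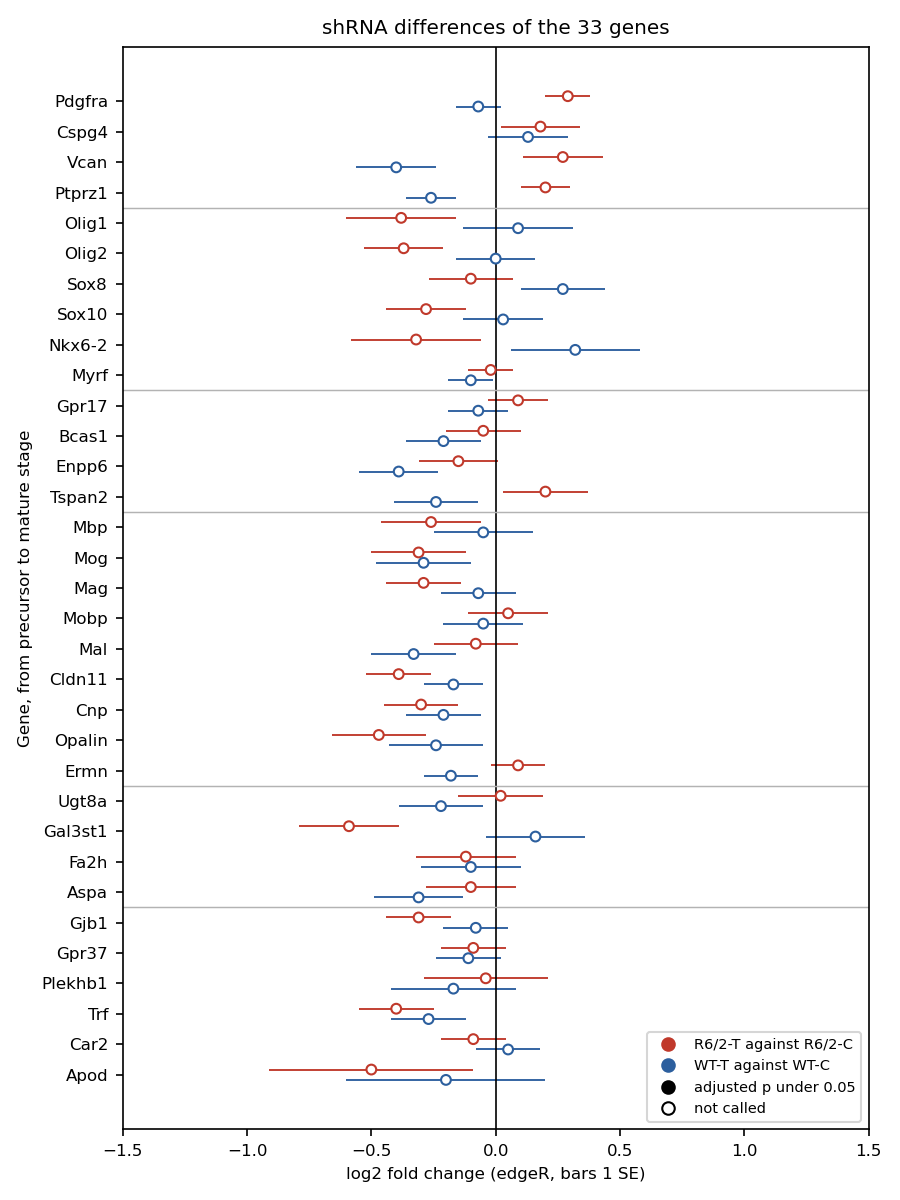
log2 fold change of each of the 33 genes for R6/2-T against R6/2-C (red) and WT-T against WT-C (blue), with bars of 1 SE from edgeR. All points are open, since none of the 33 genes had an adjusted p under 0.05, and they lie between −0.59 and 0.32.

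Other genes of the same cells were counted from 4 further lists. Of 46 other myelin and mature oligodendrocyte genes tested, 11 fell and 1 rose in R6/2-C against WT-C, 15 fell and 3 rose in R6/2-T against WT-T, and 26 fell and 2 rose in the pooled comparison. Over all genes 4.22%, 11.1% and 15.4% were called lower and 4.87%, 11.5% and 15.3% higher in these comparisons, and the same shares hold for the lists below. Erbb3, a neuregulin receptor, fell in R6/2-C against WT-C (log2 −0.63, SE 0.13, edgeR adjusted p = 0.0136). In the pooled comparison Il33, a cytokine made by oligodendrocytes (log2 −0.91, SE 0.13), Tmem63a, a mechanosensitive channel (log2 −0.54, SE 0.08), and Efnb3, an ephrin (log2 −0.50, SE 0.07), fell too.

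Of 15 other precursor genes, 1 fell in R6/2-C against WT-C, 4 fell in R6/2-T against WT-T and 6 fell in the pooled comparison, and none rose. The first of these counts is near the share of all genes called lower. Cacng4, an auxiliary subunit of glutamate receptors that neurons also make, had 83.1, 85.5 and 68.1 CPM in R6/2-C, against 141 CPM in each WT-C library. It had 61.2, 65.5 and 66.1 CPM in R6/2-T, against 134, 128 and 160 CPM in WT-T, and its pooled log2 difference was −0.98 (SE 0.08, edgeR adjusted p = 1.82e-05). No R6/2 library reached a WT library. C1ql1 (pooled log2 −0.67, SE 0.15), the proteoglycan gene Cspg5 (−0.37, SE 0.09) and the sialidase gene Neu4 (−0.35, SE 0.08) also fell.

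Of 12 other genes of committed oligodendrocytes, 4 rose and 3 fell in the pooled comparison, where 15.3% of all genes were higher and 15.4% lower. Zfp488, a zinc finger factor of oligodendrocyte differentiation, had 7.28, 9.23 and 6.84 CPM in R6/2-C, against 5.60, 6.25 and 5.24 CPM in WT-C. With the shRNA it had 9.12, 7.91 and 8.86 CPM in R6/2-T, against 5.26, 4.82 and 4.27 CPM in WT-T. All R6/2 libraries were above all WT libraries (pooled log2 0.65, SE 0.11, edgeR adjusted p = 0.00109). The kinesin gene Kif21a (pooled log2 0.43, SE 0.08) and the sulfotransferase gene Ust (0.31, SE 0.06) also rose, and Rnf122 fell (−0.51, SE 0.12). Bulk tissue does not show which cells the RNA of these genes came from. In R6/2-C against WT-C alone 1 of the 12 was called, the calcium channel gene Itpr2 (log2 −0.72, SE 0.16, adjusted p = 0.0232). In R6/2-T against WT-T 4 of the 12 rose and 2 fell, where 11.5% of all genes were called higher and 11.1% lower.

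Of 12 other genes of lipid synthesis and breakdown, 4 rose and 2 fell in the pooled comparison, where 15.3% of all genes were higher and 15.4% lower. In R6/2-C against WT-C 1 rose and 0 fell, where 4.87% of all were higher and 4.22% lower. In R6/2-T against WT-T 3 rose and 1 fell, where 11.5% of all were higher and 11.1% lower. Ugcg, which makes glucosylceramide, rose (pooled log2 0.42, SE 0.06, edgeR adjusted p = 0.000791), as did Smpd1, the acid sphingomyelinase (0.36, SE 0.07). Smpd1 had 115, 101 and 95.6 CPM in R6/2-C, against 74.8, 80.6 and 72.3 CPM in WT-C. With the shRNA it had 71.7, 72.6 and 73.8 CPM in R6/2-T, against 54.1, 62.5 and 63.6 CPM in WT-T. R6/2 lay above WT under each virus, but R6/2-T overlapped WT-C. Acsbg1, an acyl-CoA synthetase (−0.35, SE 0.09), and Gltp, a glycolipid transfer protein (−0.43, SE 0.11), fell. Many of these lipid genes are active in most cell types.

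Markers of other cell types moved between the same groups. In the pooled comparison, 11 of 12 medium spiny neuron markers, 8 of 10 astrocyte markers, 8 of 10 microglia markers and 8 of 9 endothelial and mural markers were called lower, where 15.4% of all genes were. The microglia count differed between the comparisons behind it, with 0 of 10 called in R6/2-C against WT-C (0 by edgeR, 0 by DESeq2, and 0 with an unadjusted edgeR p under 0.05), and 8 of 10 called lower in R6/2-T against WT-T. All 10 microglia differences were negative in R6/2-C against WT-C, with a median log2 of −0.63, and the median was −1.40 in R6/2-T against WT-T. The interaction was called for 0 of the 10, so the 2 comparisons are not shown to differ in these markers. Endothelial and mural markers had 5 and 3 of 9 called lower, astrocyte markers 6 and 4 of 10, and medium spiny neuron markers 9 and 10 of 12, in R6/2-C against WT-C and in R6/2-T against WT-T. Of the other lists in the pooled comparison, 3 of 8 pan-neuronal, 1 of 6 cortical excitatory neuron and 3 of 5 ependymal markers were lower. Higher were 1 of 8 pan-neuronal and 1 of 7 choroid plexus markers, near the 15.3% of all genes called higher. The choroid plexus count did not show its direction, since 0 of the 7 pooled differences were negative (median log2 1.53). DESeq2 called 3 of these 7. edgeR called 0 of the 7 in R6/2-C against WT-C (median log2 1.73) and 0 in R6/2-T against WT-T (median 1.28). The astrocyte sum was 769 to 776 FPKM in R6/2-T and 699 to 870 FPKM in R6/2-C, against 961 to 1305 FPKM in WT-T and 1179 to 1313 FPKM in WT-C. The medium spiny neuron sum was 1137 to 1174 FPKM in R6/2-T and 1503 to 1757 FPKM in R6/2-C, against 2826 to 3486 FPKM in WT-T and 2882 to 3355 FPKM in WT-C.

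The pan-neuronal sum was 1200 to 1219 FPKM in R6/2-T and 1271 to 1307 FPKM in R6/2-C, against 1144 to 1395 FPKM in WT-T and 1215 to 1280 FPKM in WT-C, which overlapped between genotypes. The endothelial and mural sum was 57.7 to 69.9 FPKM in R6/2-T and 59.7 to 67.4 FPKM in R6/2-C, against 66.6 to 80.8 FPKM in WT-T and 77.6 to 89.5 FPKM in WT-C. The microglia sum was 214 to 305 FPKM in R6/2-T and 348 to 940 FPKM in R6/2-C, against 420 to 1414 FPKM in WT-T and 508 to 1200 FPKM in WT-C. The cortical sum was 184 to 220 FPKM in R6/2-T and 255 to 306 FPKM in R6/2-C, against 360 to 490 FPKM in WT-T and 367 to 386 FPKM in WT-C. The ependymal sum was 29.5 to 36.3 FPKM in R6/2-T and 35.2 to 42.6 FPKM in R6/2-C, against 35.4 to 62.8 FPKM in WT-T and 45.2 to 55.5 FPKM in WT-C. Between genotypes the pan-neuronal, microglia, endothelial and mural, and ependymal sums overlapped, and the astrocyte, medium spiny neuron and cortical sums did not. The cortical sum did not stand for all its genes. In R6/2-C against WT-C 1 of the 6 cortical markers had a negative difference (median log2 0.25), and in R6/2-T against WT-T 5 did (median −1.29). Slc17a7, the defining marker of that list, was at 1.02 to 2.99 FPKM in R6/2-T and 2.5 to 9.26 FPKM in R6/2-C. It was at 3.1 to 11.5 FPKM in WT-T and 4.03 to 8.09 FPKM in WT-C, so R6/2-C and WT-C overlapped.

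The choroid plexus sum varied widely, from 652 to 1185 FPKM in R6/2-T and from 79.6 to 1233 FPKM in R6/2-C, against 94.1 to 803 FPKM in WT-T and 90.5 to 222 FPKM in WT-C, nearly all of it Ttr. Schwann cells make the myelin of nerves outside the brain and share some of its genes. Of 5 tested Schwann cell markers 2 were lower in the pooled comparison, where 15.4% of all genes were. Ppp1r1b, the phosphoprotein that marks striatal medium spiny neurons, was at 208 to 236 FPKM in R6/2-T and 348 to 420 FPKM in R6/2-C, against 679 to 949 FPKM in WT-T and 748 to 984 FPKM in WT-C. The part of any of these cell types, or of the choroid plexus, in the differences of the oligodendrocyte genes was not tested.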

How the data were processed

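Total RNA of the striatum was sequenced in 12 libraries, 3 per group. Per the labels' protocols, TRIzol or a miRNeasy kit was used; the kit of each library is not known here, so no split by kit was made. bcl2fastq 2.20, HISAT2 (with no version) and build GRCm38 are named in the submitters' processing notes. The deposited expected counts are StringTie estimated counts per gene, per the file headers, and are whole numbers that summed to between 131783370 and 229332386 per library. The deposited Cuffdiff signal gives fragment counts scaled to a common size, from which 32206236 to 57308871 fragments per library were recovered for an alternative (96.1% to 97.1% of values were whole within 0.05). The deposited FPKM values were used for levels between genes. Another 12 columns of the counts file, headed Pearson, were not used.

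The test was that of edgeR 4.0.16 (R 4.3.3; quasi-likelihood F test, robust, TMM scaling, default filter by group), in 1 model of 4 group means. The design had assumed plain counts. Tests were two-sided, calls needed an adjusted p (Benjamini-Hochberg, over 23453 genes) under 0.05, and p-values measure the spread between libraries, which may be technical. CPM uses the TMM factors, and group values are mean ± SD. Each SE of a log2 difference was derived from the edgeR test, as the size of the difference divided by the square root of F. The library kit marks strand; use of strand in counting is not stated in the sources.

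The genes, lists and stages were chosen with earlier results of these data known. All 33 genes are named, and of each further oligodendrocyte list the 4 called genes with the smallest p in R6/2-C against WT-C and in the pooled comparison; of other cell types, sums and defining markers. Some genes that this rule takes are not reported here. Alternatives were DESeq2 1.42.0, limma 3.58.1 on log2(FPKM + 0.1) and log2(FPKM + 1), other scalings and filters, recovered fragments, a GC and length correction, the groups compared alone, a replicate block and each library left out. The code was tested on simulated data.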

Additional observations from a re-analysis of the deposited data

How the results depend on the processing

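In R6/2-C against WT-C, the 13 called genes became 2 by limma on log2(FPKM + 0.1) with no filter, 4 in a fit of these groups alone and 7 with the replicate block and the GC and length correction; without 1 library the count was 6 to 12. In R6/2-T against WT-T, the 15 became 4 by limma with no filter and 6 to 14 without 1 library. The 14, found without WT-T 1, were 13 lower and 1 higher. In the pooled comparison, the 21 became 11 by limma with no filter and 20 to 22 without 1 library. The pooled count without WT-T 1 was 22, of which 21 were lower and 1 higher. In R6/2-T against R6/2-C, 0 to 2 were called without 1 library. The causes were not tested, beyond fewer libraries in the fits that left some out. Pooled differences of uncalled genes turned sign in 3 cases: Olig1 to 0.04 with the GC and length correction, with or without the replicate block, and Cnp to 0.02 with both. Pooled calls were gained by Ptprz1 (lower by DESeq2, RLE or upper-quartile scaling, recovered fragments, the GC and length correction with or without the block, and without R6/2-C 2), Opalin (lower with the GC and length correction) and Gjb1 (lower without WT-T 2 or WT-T 3), beside Enpp6 (higher without WT-T 1). Called under every alternative were 2 genes in R6/2-C against WT-C, 4 in R6/2-T against WT-T and 11 in the pooled comparison. Same-numbered libraries did not deviate together more than others (r from −0.25 to 0.20, against −0.21 to 0.28 for differently numbered libraries). With 3 libraries a group this cannot show whether the numbers mark pairs, and the labels do not say. The replicate block alone gave 9, 14 and 21 calls in these 3 comparisons. Genes at low CPM such as Gal3st1 and Aspa rest on fewer counts than the others, and 3 libraries a group limit the precision of all.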

Other observations

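Enpp6 gave different pictures on the deposited scales. Its FPKM was 7.32, 7.6 and 3.73 in R6/2-T, 7.90, 4.92 and 7.73 in R6/2-C, 7.17, 5.10 and 2.97 in WT-T and 7.31, 7.62 and 3.93 in WT-C. Its CPM in the same libraries was 22.3, 24.4 and 20.2 in R6/2-T, 24.9, 23.8 and 25.8 in R6/2-C, 21.6, 15.5 and 14.8 in WT-T and 25.8, 24.1 and 18.2 in WT-C. R6/2-T 3, R6/2-C 2, WT-T 3 and WT-C 3 thus had less FPKM for their CPM than the other libraries of their groups.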
